A study of Mus musculus with 17 samples.

Results

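The genes described here are 34 genes of glycolysis and of the response to low oxygen, taken from a list of named genes out of 20572 in the count tables of a study of the RNA-binding protein Musashi-2 (Msi2) in mouse keratinocytes. All 34 had a row in both count tables, and the rule names the genes and uses no measured value. The list was chosen with earlier results of these data known, so its direction is no independent support. For the description they were ordered by role. Glucose entry holds 3 genes, the phosphofructokinase step 4, the other glycolytic enzymes 9 and the fate of pyruvate and lactate 4, which makes 20 genes of glycolysis and lactate. Oxygen sensing holds 3 genes and the targets of the hypoxia response 11.

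The cells were a C57BL/6 keratinocyte culture from newborn skin, immortal without an introduced gene, which had grown on NIH-3T3 J2 feeder cells for its first passages. A lentivirus brought in either a scrambled shRNA (control) or an Msi2 shRNA (knockdown), and both groups went through puromycin selection at 2 ug/ml for 2 days before they were expanded. RNA was sequenced in 3 control and 3 knockdown libraries, and ribosome footprints, the stretches of RNA that ribosomes shield from nuclease, in 3 and 3 further libraries from cells treated with cycloheximide. Msi2 binding sites were mapped by HITS-CLIP, which uses ultraviolet light to link a protein to RNA in contact with it, in 5 libraries made from such cells, for which the labels name no shRNA, with 4 RNase dilutions. CLIP libraries 2 and 3 share the 1:20 dilution and are labelled as low and high molecular weight. All groups carry the label of the same immortalized culture, and the labels name no second Msi2 shRNA. No label says whether replicate libraries were grown as separate cultures. The p-values therefore speak only of the spread among these libraries, and that spread may be technical.

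In glycolysis, enzymes of the cytosol break glucose down to pyruvate, which is either oxidised in mitochondria or reduced to lactate and exported. The transcription factor subunit Hif1a is marked for degradation by prolyl hydroxylases while oxygen is present. When oxygen is low it accumulates, pairs with Arnt and switches on genes for glucose uptake, glycolysis, blood vessel growth and the removal of mitochondria. Epidermis lies at a distance from blood vessels and is known for a high rate of lactate formation. Msi2 binds short motifs in RNA, mostly in 3′ untranslated regions (3′ UTRs), and changes the stability or the translation of the RNAs it binds.

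Levels are given in CPM, the reads over a gene's coding sequence for every 1000000 reads of the library, after scaling between libraries. RNA libraries held 9221566 to 26785876 gene counts and footprint libraries 512256 to 2959625, with the smallest in the knockdown, so footprint values are the less precise. As a check of the labels, Msi2 footprints were 17.1, 16.8 and 18.3 CPM in the control libraries and 4.53, 0 and 5.12 CPM in the knockdown libraries (log2 fold change -2.08 ± 0.41 (SE), adjusted p = 0.000285, edgeR's quasi-likelihood test). Msi2 RNA, at 6.51, 6.64 and 8.82 CPM against 6.55, 6.41 and 5.11 CPM, overlapped between the groups (-0.29 ± 0.21, adjusted p = 0.283). With the trend of each library with gene span removed, Msi2 RNA was called lower (-0.56 ± 0.20, adjusted p = 0.028). Keratinocyte markers (6 of 6 detected) summed to 13960 to 17490 CPM of RNA in the control and 11680 to 13210 CPM in the knockdown. These sums are mostly Krt5 and Krt14, which with Cdh1 were called lower in RNA, while Itgb4 (0.57) and Col17a1 (0.61) were called higher (log2 fold change, adjusted p = 0.00217 and 0.00102, edgeR). Fibroblast markers summed to 0.856 to 1.38 CPM and 1.87 to 2.44 CPM, with 6 of 8 at 0 in every RNA library, and immune markers to 16.0 to 18.6 CPM and 8.07 to 13.2 CPM, with 3 of 5 at 0. The immune sum is almost all Cd68, which was called lower in RNA and in footprints (adjusted p = 0.00323 and 0.0313, edgeR). Melanocyte markers summed to 0.856 to 2.01 CPM and 1.73 to 3.12 CPM, with 2 of 4 at 0, and endothelial and muscle markers to 1.59 to 3.00 CPM and 4.01 to 5.82 CPM. Reads that aligned to several places made up 13.4 to 17.4% of a control RNA library and 19.8 to 24.5% of a knockdown library. Aldoa, Tpi1, Gapdh, Pgk1, Pgam1 and Ldha have many near-identical pseudogene copies, so their counts can depend on how such reads were treated, which was not tested.

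The members as a group leaned to lower RNA. Of the 31 that could be tested, 15 were lower in the knockdown, 2 were higher and 14 were not called (edgeR's quasi-likelihood test, Benjamini-Hochberg adjusted p under 0.05 over 11117 genes). Among all genes tested, 21.7% were lower and 22% were higher (43.8% in either direction). The members' median log2 fold change was -0.46, beside 0.00 for all genes, and single members ranged from -1.36 to 1.28. In bulk samples such as these, fewer cells of a type and less RNA per cell cannot be told apart. The 15 lower genes were Slc2a1, Hk1, Pfkl, Pfkp, Aldoa, Tpi1, Pgk1, Pgam1, Ldha, Pdk1, Hif1a, Egln3, Ndrg1, Bnip3 and Bnip3l. Pfkfb3 and Kdm3a were higher. In 17 members every knockdown library lay below every control library, and in 3 every knockdown library lay above, beside 26.2% and 26.8% of all genes.

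In footprints, 10 of the 28 members that could be tested were lower and none was higher, beside 7.38% and 8.76% of 8969 genes. At an unadjusted p under 0.05, 0 members were higher by edgeR, and DESeq2 called 0 higher. Their median log2 fold change was -0.43 (all genes -0.01). All 15 members with lower RNA had a footprint log2 fold change below 0, and 9 of them were also called lower in footprints: Slc2a1, Hk1, Pfkl, Pfkp, Aldoa, Pgk1, Hif1a, Ndrg1 and Bnip3. These 9 are 60.0% of the members lower in RNA and 90.0% of those lower in footprints. Over all genes, the 548 genes lower in both made up 22.7% and 82.8%. The 22.7% is of all genes lower in RNA, whether or not they could be tested in footprints, while all 15 such members were tested there. The 60.0% and the 22.7% are therefore not like for like. RNA and footprints came from cells of the same groups, and these shares describe how often 1 call came with the other.

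**Figure D1:**
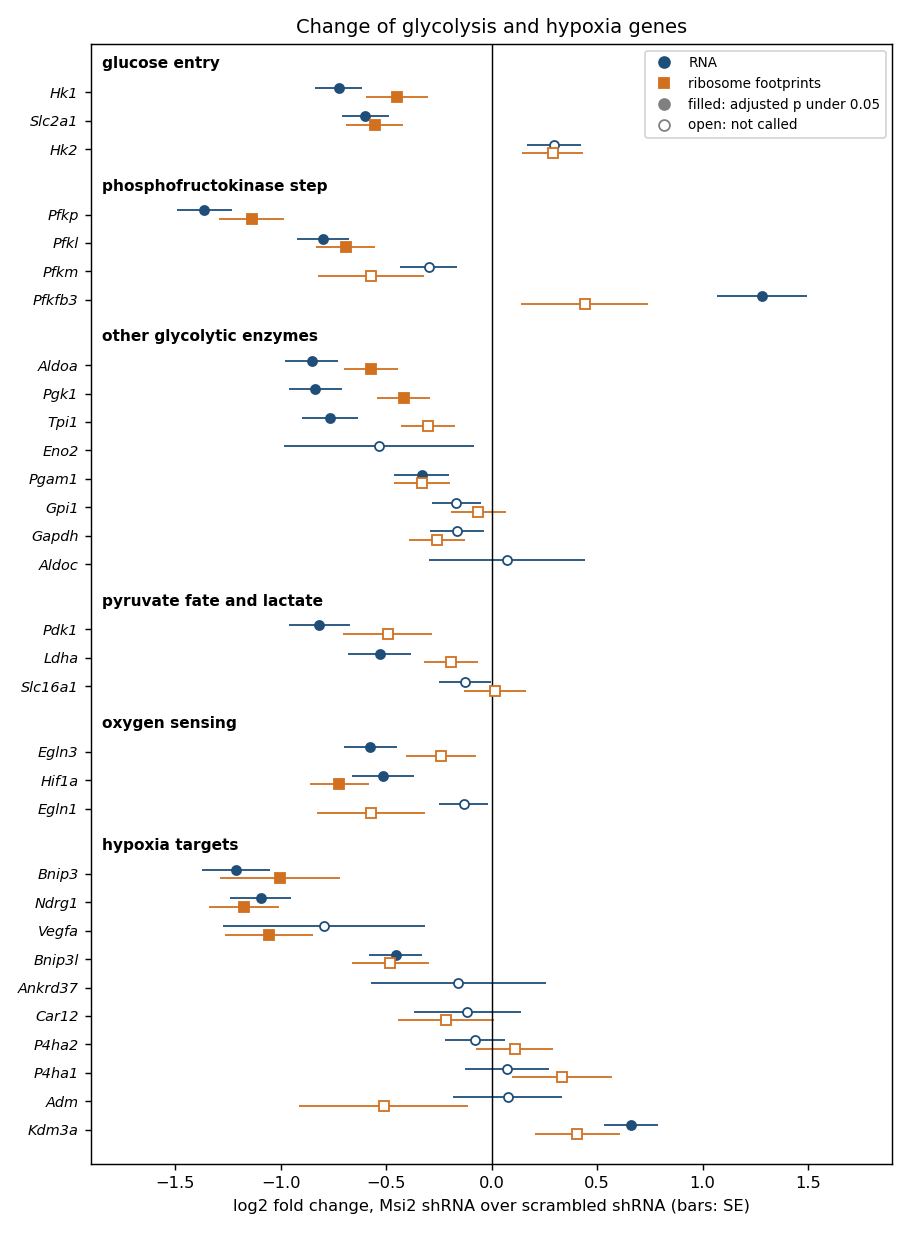
Log2 fold change (knockdown over control) of the 31 tested members by role, in RNA (blue circles) and ribosome footprints (orange squares), with bars for the standard error; filled symbols passed an adjusted p of 0.05. Most symbols lie left of 0, with Pfkp at -1.36 furthest left in RNA and Pfkfb3 at 1.28 furthest right.

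The promoters of the members show the letters through which the hypoxia factor is known to act, and a few are printed because these genes move in both directions. The core of a hypoxia response element reads ACGTG or GCGTG, and both were searched for on either strand in RefSeq windows (GRCm38.p6) from 250 bases before to 50 bases after the annotated start of transcription. ACGTG can lie inside CACGTG, a palindrome that other factors of the helix-loop-helix class bind, as it does in the Bnip3 and Pfkfb3 sites printed here. Each site is 25 bases long, reads 5′ to 3′ on the strand that holds the motif, and has the motif in capitals. The 10 sites lie 23 to 211 bases before a start. For Aldoa, Ldha, Hif1a, Vegfa and Pfkfb3 this is an annotated start well inside the gene, away from its 5′ end. Vegfa has 2 windows, and all its matches lie in the internal one. The Pfkfb3 window at the 5′ end of the gene also holds ACGTG, 60 bases before its start. Which start these cells use was not tested.
Slc2a1, chr4:119108699-119108723, plus strand: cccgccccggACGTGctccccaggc
Pfkp, chr13:6648780-6648804, minus strand: ctcgggcgggGCGTGggcggctcct
Aldoa, chr7:126799366-126799390, plus strand: ccccgctaggACGTGactcgagcca
Pgk1, chrX:106186959-106186983, minus strand: gactagtgagACGTGctacttccat
Ldha, chr7:46845760-46845784, minus strand: agcccagcggACGTGcgggaaccca
Bnip3, chr7:138909599-138909623, minus strand: cacgcgccgcACGTGccacacgctc
Hif1a, chr12:73907787-73907811, plus strand: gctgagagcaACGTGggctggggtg
Vegfa, chr17:46025360-46025384, plus strand: ttgctctctgACGTGggcacgcact
Pfkfb3, chr2:11502128-11502152, minus strand: ccttctctccACGTGaaagggggct
Kdm3a, chr6:71632930-71632954, minus strand: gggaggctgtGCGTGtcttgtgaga

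Of the 32 members with a promoter window, 22 (68.8%) held ACGTG, beside 2510 of 8426 RNA-tested genes (29.8%). A gene can have several windows. Counted by window, ACGTG was in 53.2% of the members' 47 windows, 25.6% of the 10798 windows of RNA-tested genes and 19.6% of all 32851 windows. GCGTG was in 65.6% of the members and 58.3% of the tested genes, and either motif in 87.5% and 69.5%. The letters did not separate the members by their response, since 9 of the 13 lower members with a window held ACGTG (69.2%) and so did 11 of the 16 other tested members (68.8%). A match describes the letters and is no measurement of binding.

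At glucose entry, the transporter and 1 of the 2 hexokinase genes among the members were lower, and the other hexokinase gene was not. Slc2a1 (chr4:119108745-119137330; gene positions are those of RefSeq, GRCm38.p6) encodes Glut1, the main glucose transporter of keratinocytes, and its RNA measured 155, 151 and 162 CPM in the control libraries and 99.7, 115 and 94.2 CPM in the knockdown libraries. Its footprints were 609.8, 618 and 584 CPM against 352, 485 and 411 CPM. The groups were apart in both assays, with log2 fold changes of -0.60 ± 0.11 in RNA (adjusted p = 0.000429) and -0.56 ± 0.13 in footprints (adjusted p = 0.00282). Without knockdown replicate 1 the footprint call was lost (adjusted p = 0.0691).

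Hk1 (chr10:62268855-62379920), the broadly expressed hexokinase that traps glucose as glucose 6-phosphate, had 81.7, 69.5 and 77.1 CPM of RNA in the control libraries and 45.9, 47.9 and 44.2 CPM in the knockdown libraries. Its footprints went from 158, 138 and 141 CPM to 104, 118 and 102 CPM. All knockdown libraries lay below all control libraries, with -0.73 ± 0.11 in RNA (adjusted p = 8.94e-05) and -0.45 ± 0.15 in footprints (adjusted p = 0.0322). The footprint call of Hk1 did not hold without control replicate 1, knockdown replicate 1 or knockdown replicate 3 (adjusted p = 0.143, 0.158 and 0.170).

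Hk2 (chr6:82725025-82774454), the inducible hexokinase and itself a known hypoxia target, measured 26.0, 21.8 and 22.4 CPM of RNA in the control libraries and 27.8, 29.7 and 28.7 CPM in the knockdown libraries, and 134, 129 and 134 CPM against 145, 174 and 172 CPM of footprints. Here every knockdown library lay above every control library in both assays, yet neither difference passed the test (0.29 ± 0.13, adjusted p = 0.0718 in RNA, and 0.29 ± 0.14, adjusted p = 0.179 in footprints). The balance of the 2 genes lay apart between the groups, with no overlap. Hk2 made up 22.6 to 24.2% of the summed Hk1 and Hk2 RNA counts in the control and 37.7 to 39.4% in the knockdown, and 45.9 to 48.7% against 58.1 to 62.7% of the footprint counts. These shares are of counts and are not corrected for the length of either coding sequence.

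**Figure D2:**
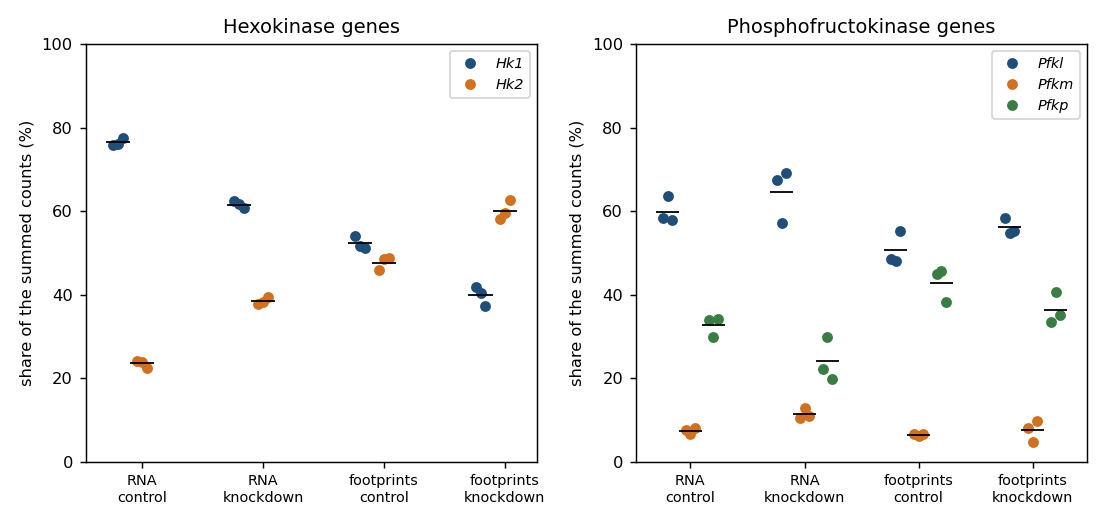
Share of each gene in the summed counts of the hexokinase genes Hk1 and Hk2 (left) and of the phosphofructokinase genes Pfkl, Pfkm and Pfkp (right), in percent; each point is 1 library and each line the mean of 3. The Hk2 share lies higher in all knockdown libraries, and the Pfkp share is lower in most but overlaps between the groups in both assays.

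The phosphofructokinase step commits glucose to glycolysis, and its genes held both the largest decrease and the largest increase of RNA among the members. Pfkp (chr13:6579874-6649060), the platelet-type subunit of phosphofructokinase, had 115, 101 and 106 CPM of RNA in the control libraries and 39.0, 50.7 and 35.8 CPM in the knockdown libraries, and footprints of 202, 190.4 and 161 CPM and 76.5, 104 and 81.9 CPM. The groups were far apart, with -1.36 ± 0.13 in RNA (adjusted p = 9.9e-07) and -1.14 ± 0.16 in footprints (adjusted p = 7.43e-07). Knockdown replicate 2 had the highest level of its group in both assays.

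Pfkl (chr10:77986947-78009807), the liver-type subunit, went from 197, 215 and 179.9 CPM to 118, 96.9 and 125 CPM of RNA and from 218, 201 and 233 CPM to 133, 140.4 and 129 CPM of footprints. Neither assay had an overlap between the groups (-0.80 ± 0.12, adjusted p = 8.32e-05, and -0.69 ± 0.14, adjusted p = 0.000426). Pfkm, the muscle-type subunit, measured 24.5 ± 1.53 CPM of RNA in the control libraries and 19.9 ± 1.72 CPM in the knockdown libraries (mean ± SD, n = 3), and passed neither test (-0.30 ± 0.13, adjusted p = 0.0777 by edgeR in RNA). The Pfkp share of the 3 phosphofructokinase genes was 29.8 to 34.1% of RNA counts in the control and 19.9 to 29.9% in the knockdown, where knockdown replicate 2 lay just above control replicate 2. In footprint counts it was 38.1 to 45.6% in the control and 33.6 to 40.6% in the knockdown, where knockdown replicate 2 lay above control replicate 3.

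Pfkfb3 (chr2:11471430-11554071) makes fructose 2,6-bisphosphate, the activator of phosphofructokinase, and is a known hypoxia target. It was the member with the largest increase. Its RNA measured 3.13, 3.32 and 3.85 CPM in the control libraries and 7.28, 8.49 and 8.90 CPM in the knockdown libraries (1.28 ± 0.21, adjusted p = 0.000173). The knockdown libraries were all above the controls, on a low level that rests on 182 and 413 reads per group. Footprints of Pfkfb3, at 15.8, 12.4 and 25.4 CPM and 15.6, 22.1 and 30.7 CPM, overlapped between the groups and did not pass the test (0.44 ± 0.30, adjusted p = 0.359).

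Of the 9 other glycolytic enzyme genes, 8 were tested in RNA. Aldoa, Tpi1, Pgk1 and Pgam1 were lower, none was higher, and Aldoa and Pgk1 were also lower in footprints. Aldoa (chr7:126795234-126800994), the aldolase that splits fructose 1,6-bisphosphate, measured 1351, 1448 and 1184 CPM of RNA in the control libraries and 729, 721 and 754 CPM in the knockdown libraries, with 1125, 1054 and 1172 CPM against 686, 792 and 778 CPM of footprints. Pgk1 (chrX:106187100-106203699), the phosphoglycerate kinase that yields the first ATP of the pathway, measured 1319.7, 1430.5 and 1194 CPM and 756, 701 and 751 CPM of RNA, with 1448, 1534 and 1251 CPM and 1079, 1063 and 1032 CPM of footprints. Both genes kept their groups apart in both assays. Aldoa had log2 fold changes of -0.85 ± 0.13 in RNA and -0.57 ± 0.13 in footprints (adjusted p = 5.9e-05 and 0.00123), and Pgk1 of -0.84 ± 0.12 and -0.42 ± 0.13 (adjusted p = 6.77e-05 and 0.0191). The footprint call of Pgk1 did not hold without control replicate 1, control replicate 2, knockdown replicate 1 or knockdown replicate 3 (adjusted p of 0.0670, 0.0749, 0.0672 and 0.136).

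Tpi1 (chr6:124810586-124814158), triosephosphate isomerase, had 782, 769 and 631 CPM of RNA in the control libraries and 453, 374 and 456 CPM in the knockdown libraries, and 1034, 1025 and 933 CPM against 882, 758 and 783 CPM of footprints. The knockdown libraries were below the controls in both assays, but the footprint difference was not called (-0.77 ± 0.13, adjusted p = 0.000227 in RNA, and -0.30 ± 0.13, adjusted p = 0.1 in footprints). Footprints of Tpi1 passed the test without control replicate 3 (adjusted p = 0.0497).

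Pgam1 (chr19:41911871-41918665), phosphoglycerate mutase, had the highest adjusted p of the genes called in RNA, with 429.8, 492 and 374 CPM and 369, 312 and 348 CPM of RNA and 1101, 1361 and 995 CPM and 964, 872 and 915 CPM of footprints. Control replicate 3 lay close to the knockdown libraries in RNA. The RNA change of -0.33 ± 0.13 (adjusted p = 0.0443) fell short of the threshold when any library other than control replicate 3 was left out (adjusted p of 0.0696 to 0.168), and the footprint change of -0.33 ± 0.13 was not called (adjusted p = 0.0822). Without control replicate 3, Pgam1 footprints passed the test (adjusted p = 0.0159).

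Gapdh and Gpi1, the dehydrogenase often used as a reference gene and glucose 6-phosphate isomerase, were not called in either assay. Gapdh RNA was 3336 ± 169 CPM in the control libraries and 2973 ± 202 CPM in the knockdown libraries, and Gpi1 RNA 458 ± 21.0 CPM and 408 ± 10.5 CPM (mean ± SD, n = 3). In RNA, the knockdown libraries of both genes lay below the control libraries by a small margin (-0.17 ± 0.13, adjusted p = 0.304, and -0.17 ± 0.11, adjusted p = 0.245, edgeR). Aldoc and Eno2, the isoforms best known from nerve cells, were near the lower limit of the RNA test at 2.22 ± 1.11 CPM and 1.96 ± 0.656 CPM in the control, were not called, and had too few footprints to test. Eno1 was listed at 0 in all 12 libraries, as were 6272 of 20572 genes in all RNA libraries. The RefSeq table lists Eno1 as a synonym of the row Gm5506, chosen here after its values were seen, which held 243, 324 and 184 CPM of RNA in the control libraries and 267, 216 and 273 CPM in the knockdown libraries (0.01 ± 0.17, adjusted p = 0.973). Eno1 is not described further.

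**Figure D3:**
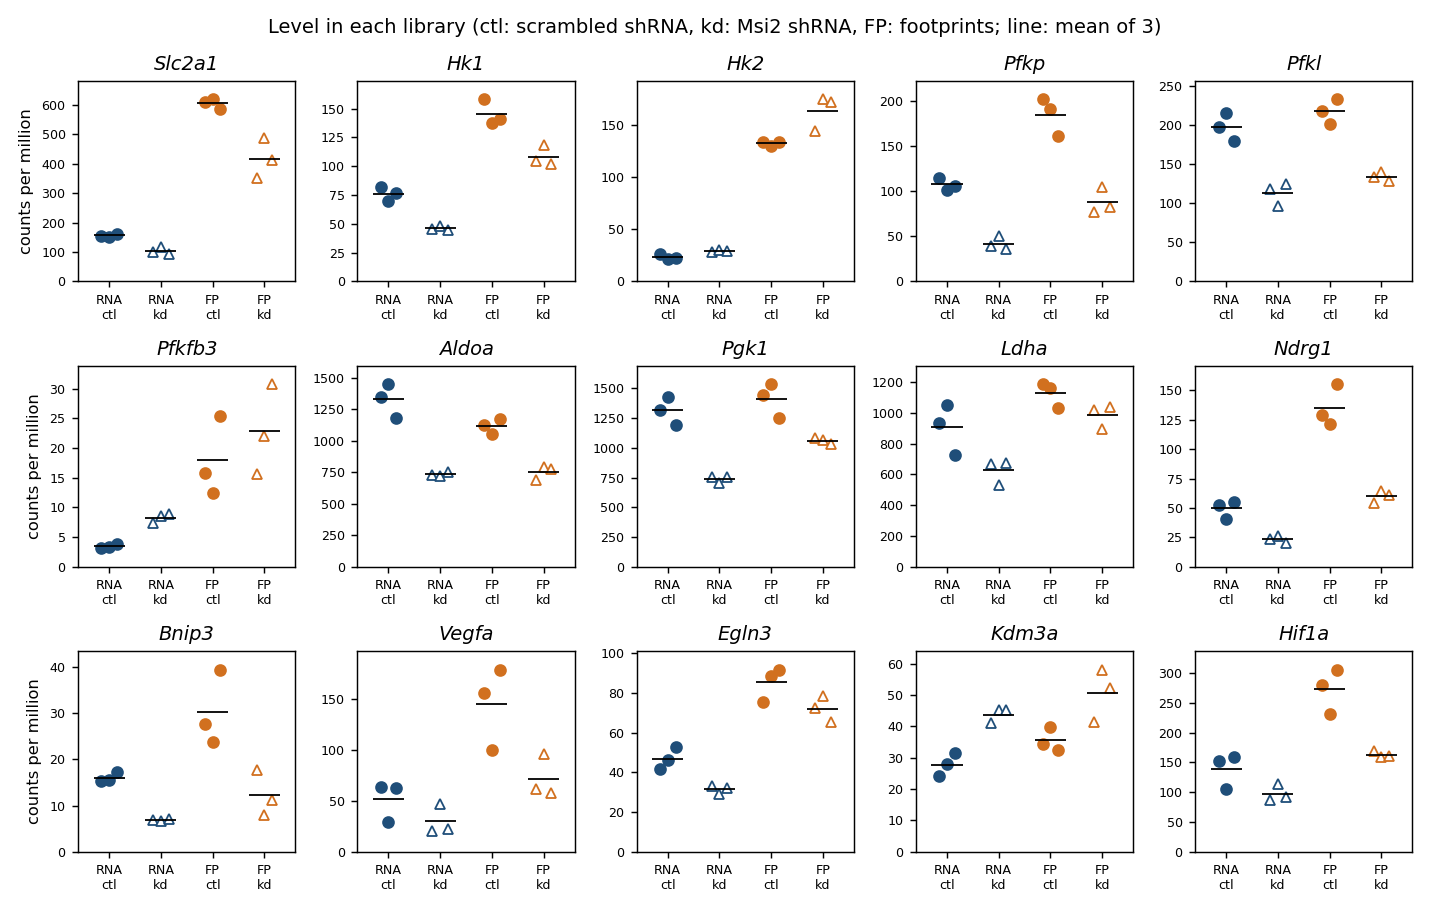
Level of 15 members in every library, in CPM, for RNA (blue) and footprints (orange) in the control (filled circles) and the knockdown (open triangles), with a line at the mean of 3; each panel has its own axis from 0. Knockdown points lie below control points in both assays for Slc2a1, Hk1, Pfkp, Pfkl, Aldoa, Pgk1, Ndrg1 and Bnip3, and above them for Hk2 and Kdm3a.

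Of the 4 genes for the fate of pyruvate and lactate, Ldha and Pdk1 were lower in RNA and none was called in footprints. Ldha (chr7:46842274-46855627), the lactate dehydrogenase subunit that favours lactate, measured 934, 1053 and 728 CPM of RNA in the control libraries and 669, 532 and 676 CPM in the knockdown libraries. Its footprints, at 1185, 1164 and 1029.9 CPM against 1019, 893 and 1041 CPM, overlapped between the groups. RNA of Ldha was lower by the test (-0.53 ± 0.15, adjusted p = 0.00784), and all knockdown libraries lay below the controls. Knockdown replicate 2 was the lowest library, and without it the adjusted p was 0.0504. The footprint difference was not called (-0.19 ± 0.13, adjusted p = 0.336).

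Pdk1 (chr2:71873215-71903858) encodes a kinase that inhibits pyruvate dehydrogenase and so keeps pyruvate out of the mitochondrial cycle. Its RNA was 26.9, 28.7 and 37.3 CPM in the control libraries and 16.2, 17.7 and 18.4 CPM in the knockdown libraries, with no overlap (-0.82 ± 0.15, adjusted p = 0.000312). Its footprints were 43.0, 46.7 and 39.5 CPM and 32.7, 38.1 and 24.6 CPM, also without overlap but not called (-0.49 ± 0.21, adjusted p = 0.105).

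Slc16a1 (chr3:104638664-104658462), the lactate carrier Mct1, overlapped between the groups in both assays, at 37.7, 38.4 and 42.7 CPM against 39.9, 32.7 and 36.2 CPM of RNA and 132, 109 and 138 CPM against 129, 118 and 128 CPM of footprints. Neither difference was called (-0.13 ± 0.12, adjusted p = 0.414, and 0.02 ± 0.15, adjusted p = 0.962). Slc16a3, the lactate exporter Mct4 and a hypoxia target, was listed at 0 in all 12 libraries. Summed over the 20 genes of glycolysis and lactate, members took 0.872 to 0.905% of the RNA counts of a control library and 0.681 to 0.682% of a knockdown library. In footprints they took 0.869 to 0.938% and 0.669 to 0.684%. The groups did not overlap in either assay. Most of the summed counts come from Gapdh, Aldoa, Tpi1, Pgk1, Pgam1 and Ldha, so the sum describes mainly these genes. Their counts can depend on how reads aligned to several places were treated, which was not tested.

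Hif1a (chr12:73901324-73947554), the oxygen-regulated factor subunit, had 152, 106 and 159.6 CPM of RNA in the control libraries and 86.2, 113 and 92.5 CPM in the knockdown libraries. Its footprints were 281, 231 and 306 CPM in the control libraries and 169, 158 and 162 CPM in the knockdown libraries. In RNA the groups overlapped, because control replicate 2 lay below knockdown replicate 2, while in footprints every knockdown library was below every control. Both differences passed the test (-0.52 ± 0.15, adjusted p = 0.00921 in RNA, and -0.72 ± 0.14, adjusted p = 0.000253 in footprints). The RNA call was lost when replicate 1 of the control (adjusted p = 0.0597) or of the knockdown (0.0530) was left out. Hif1a protein was not measured here.

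The prolyl hydroxylases that mark Hif1a for degradation differed in their values. Egln3 (chr12:54178981-54203874), which is itself induced by the factor, had 41.5, 46.1 and 52.8 CPM of RNA in the control libraries and 33.1, 29.0 and 31.9 CPM in the knockdown libraries, with no overlap (-0.58 ± 0.13, adjusted p = 0.00148). Its footprints, at 75.5, 88.7 and 91.7 CPM and 72.5, 78.2 and 65.5 CPM, were not called (-0.24 ± 0.17, adjusted p = 0.365). Egln1 (chr8:124908587-124949254), the main hydroxylase of most cells, measured 57.0, 71.4 and 58.7 CPM and 59.7, 55.4 and 55.9 CPM of RNA and 22.0, 33.9 and 35.3 CPM and 22.7, 16.0 and 17.4 CPM of footprints. Egln1 overlapped in both assays and was not called (-0.13 ± 0.12, adjusted p = 0.371, and -0.57 ± 0.26, adjusted p = 0.124).

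Of the 11 targets of the hypoxia response, 10 were tested in RNA, with Ndrg1, Bnip3 and Bnip3l lower, Kdm3a higher and 6 not called. These are 30% lower and 10% higher, beside 21.7% and 22% of all genes tested in RNA. Ndrg1 (chr15:66929318-66969641), a gene that rises in low oxygen and in differentiating epithelia, had 52.8, 40.8 and 55.2 CPM of RNA in the control libraries and 23.9, 26.0 and 19.9 CPM in the knockdown libraries, and 129, 121 and 155 CPM against 54.4, 64.2 and 61.4 CPM of footprints. Bnip3 (chr7:138890836-138909506), a receptor for the removal of mitochondria, had 15.3, 15.6 and 17.2 CPM and 6.86, 6.73 and 7.09 CPM of RNA, and 27.7, 23.8 and 39.5 CPM and 17.6, 8.02 and 11.3 CPM of footprints. For both genes all knockdown libraries were below all control libraries in both assays. Ndrg1 changed by -1.10 ± 0.14 in RNA and -1.17 ± 0.17 in footprints (adjusted p = 2.4e-05 and 1.46e-06). Bnip3 changed by -1.21 ± 0.16 and -1.0 ± 0.28 (adjusted p = 2.58e-05 and 0.0107). The footprints of Bnip3 rest on 162 and 50 reads, and their call was lost without knockdown replicate 3 (adjusted p = 0.0763).

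Bnip3l (chr14:66985238-67008877), the relative of Bnip3 with the same role, was lower in RNA, at 47.5, 39.8 and 37.8 CPM against 28.9, 31.5 and 30.8 CPM (-0.46 ± 0.13, adjusted p = 0.00741). Its footprints, at 74.2, 80.3 and 114 CPM against 64.5, 70.2 and 51.2 CPM, did not overlap and were not called (-0.48 ± 0.18, adjusted p = 0.065).

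Vegfa (chr17:46016993-46032377), the growth factor for blood vessels, was the single member called lower in footprints and not in RNA. Its RNA was 63.5, 29.5 and 62.7 CPM in the control libraries and 20.6, 47.0 and 22.0 CPM in the knockdown libraries, and its footprints were 156, 100.4 and 179 CPM and 61.4, 96.3 and 57.3 CPM. Replicate 2 of each group stood apart in RNA, since the control library was low and the knockdown library was high, and the groups overlapped. In footprints the control library numbered 2 was again the lowest of its group and the knockdown library numbered 2 the highest of its group, without overlap. The log2 fold changes were -0.80 ± 0.48 in RNA (adjusted p = 0.241) and -1.06 ± 0.21 in footprints (adjusted p = 0.000847). Without knockdown replicate 2 the RNA change was -1.28 and passed the test (adjusted p = 0.0084). In 1 fit over all 12 libraries, the footprint call was lost (adjusted p = 0.245).

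Kdm3a (chr6:71588970-71632990), a histone demethylase that the hypoxia factor induces, went the other way. Its RNA was 24.0, 27.9 and 31.5 CPM in the control libraries and 41.1, 45.1 and 45.2 CPM in the knockdown libraries, and its footprints 34.2, 40.0 and 32.4 CPM and 41.3, 58.2 and 52.2 CPM. The knockdown libraries were above the controls in both assays, and RNA passed the test (0.66 ± 0.13, adjusted p = 0.000598) while footprints did not (0.41 ± 0.20, adjusted p = 0.178).

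Adm, Ankrd37, P4ha1, P4ha2 and Car12 overlapped between the groups in RNA, with log2 fold changes from -0.16 to 0.08, and none was called in either assay. Adm encodes the peptide adrenomedullin, P4ha1 and P4ha2 the catalytic subunits of collagen prolyl hydroxylase, and Car12 a carbonic anhydrase of the cell surface. Ankrd37 could not be tested in footprints. Car9, the carbonic anhydrase known as a hypoxia marker, had 12 RNA reads in all control libraries and 20 in all knockdown libraries and was not tested. Over oxygen sensing and hypoxia targets together, 5 of 13 genes tested in RNA were lower and 1 was higher (median -0.16), and 4 of 12 were lower in footprints (median -0.50). Over glycolysis and lactate, 10 of 18 were lower and 1 higher in RNA (median -0.53), and 6 of 16 were lower in footprints (median -0.37). Among all genes tested, 21.7% were lower and 22% higher in RNA and 7.38% lower in footprints.

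Translational efficiency, the footprint change relative to the RNA change, was tested as an interaction over all 12 libraries. None of the 31 members tested was called in this fit, beside 0.203% of 10821 genes (0.129% higher and 0.0739% lower), and the smallest adjusted p among members was 0.277 (edgeR). DESeq2's Wald test called none of the members either. At an unadjusted p under 0.05 there were 3 members, beside 12% of all genes. Tpi1 and Pgk1 had log2 differences above 0, where footprints lie nearer to the control than RNA does (0.48 ± 0.19 and 0.43 ± 0.18, unadjusted p of 0.0145 and 0.0233 by edgeR). The difference of Pfkfb3 was -0.82 ± 0.38 (unadjusted p of 0.0374, edgeR). The standard error of this difference ran from 0.17 in Gpi1 to 2.01 in Eno2, so differences in translation that are small beside these errors were not detectable with these libraries. The error of Vegfa, whose libraries spread widely within their groups, was 0.65. With each RNA library paired to the footprint library of its group and number, a fit added after the data were seen, Tpi1 was called at 0.48 ± 0.14 (adjusted p = 0.0366).

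**Figure D4:**
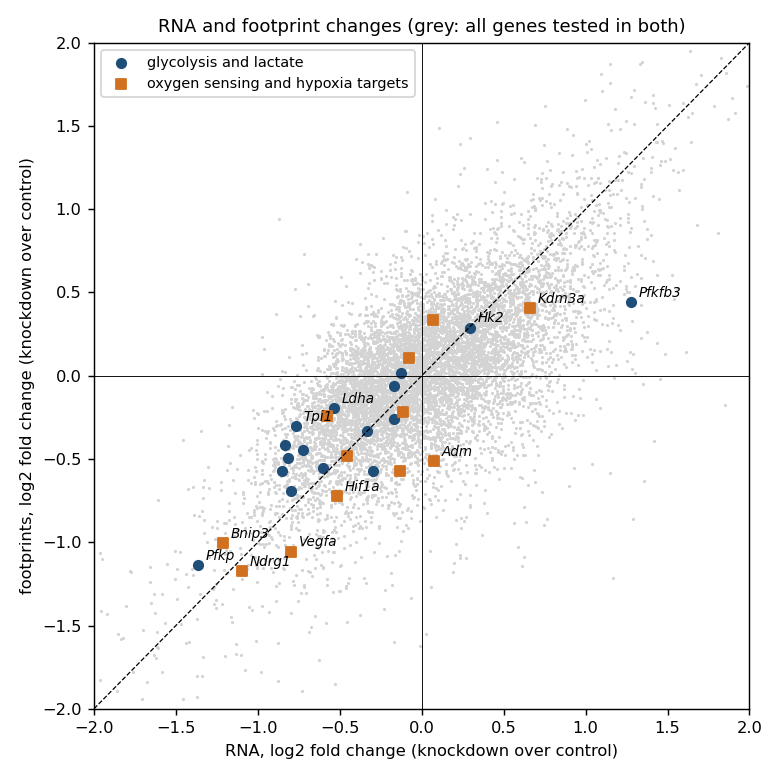
Log2 fold change (knockdown over control) in RNA (x axis) and in footprints (y axis) for the 28 members tested in both assays, over all 8918 genes tested in both (grey; 71 lie outside the range drawn). The dashed line marks equal change; most members lie in the lower left, with Vegfa lower in footprints and Pfkfb3 and Kdm3a on the right.

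Msi2 CLIP peaks were found in the 3′ UTRs of 6 of the 34 members (17.6%, 95% Wilson interval 8.35 to 33.5%, counting error only). Among members tested in RNA the share was 19.4% (9.19 to 36.3%), beside 10.3% of the 11117 RNA-tested genes. The 6 genes held 13 peaks, each a region that the authors found over all 5 libraries together and that has a height of at least 10 reads. No control immunoprecipitation was used here, and reads in a peak also depend on how much of an RNA is present.

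Hif1a held 4 of these peaks, with heights of 66, 32, 32 and 12 reads, and Slc16a1 also held 4, with heights of 10, 32, 19 and 16. Of the 1199 genes in the 3′ UTR list, 195 (16.3%) had 4 or more. The highest peak of Hif1a (mm10, chr12:73945724-73946010) had 0, 22, 18, 13 and 13 reads in CLIP libraries 1 to 5, and its summit lay 1689 bases before the annotated end of the gene. Its height was above 95.1% of all 3′ UTR peaks. The first CLIP library, with undiluted RNase, was the shallowest, at 1954 reads in 3′ UTR peaks against 17760 to 26026 in the others, and 12 of the 13 peaks had no read in it. Of all 3′ UTR peaks, 63.2% had none there.

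The other 4 genes held 1 or 2 peaks each. Slc2a1 had 1 peak (chr4:119137224-119137358, height 22), Hk2 had 1 (chr6:82725027-82725139, height 19), Egln1 had 1 (chr8:124909353-124909465, height 16) and Ldha had 2 (chr7:46855345-46855465 and chr7:46855501-46855630, heights 11 and 20). The median height of all 3′ UTR peaks was 16. Summits lay 33 bases from the annotated end in Slc2a1, 63 in Hk2, 28 and 200 in Ldha and 796 in Egln1. Slc16a1 peaks were spread over 1339 bases and those of Hif1a over 1188 bases.

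Genes with a peak did not share 1 response. Hif1a and Slc2a1 were lower in RNA and footprints, Ldha in RNA, and Hk2, Slc16a1 and Egln1 in neither. The members with the largest decreases of RNA (Pfkp, Bnip3 and Ndrg1) and of footprints (Ndrg1, Pfkp and Vegfa) have no peak in the list, nor have Pfkfb3 and Kdm3a. The list of all peaks, which takes in other parts of genes, added no member. With a height of at least 20 there were 4 members with 6 peaks, and with a read in all 5 libraries 1 member with 1 peak.

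**Figure D5:**
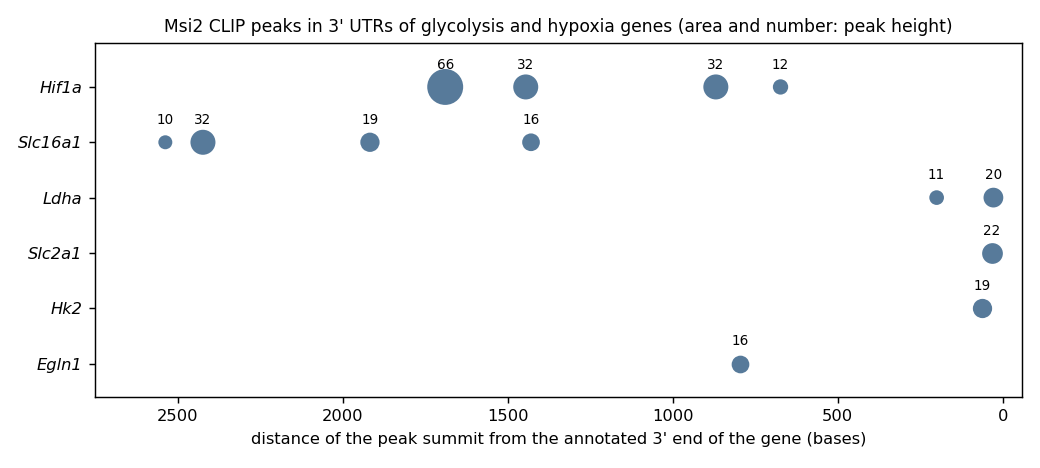
Position of the 13 Msi2 CLIP peaks in 3′ UTRs of 6 members, as the distance in bases of each summit from the annotated 3′ end of the gene (at the right); the area of a dot and the number above it give the peak height in reads. Hif1a and Slc16a1 carry 4 peaks each, and the highest, of 66 reads, is in Hif1a.

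Other genes of the pathway were taken from lists of related enzymes and factors. Of the other glycolysis and pyruvate genes, 5 of 17 tested were lower in RNA and 2 were higher, beside the backgrounds of 21.7% and 22% given above. Dlat and Pdhb, subunits of pyruvate dehydrogenase, had the smallest p, with -0.55 ± 0.10 and -0.53 ± 0.11 (adjusted p = 0.000471 and 0.00104). Ldhb, a further lactate dehydrogenase subunit, was higher in RNA (0.43 ± 0.14, adjusted p = 0.0193, edgeR) and in footprints (0.98 ± 0.25, adjusted p = 0.00456, edgeR). Pkm, a pyruvate kinase gene, was lower in RNA (-0.38 ± 0.14, adjusted p = 0.0382, edgeR). Its footprints overlapped between the groups and were not called (0.05 ± 0.13, adjusted p = 0.845, edgeR). In footprints 1 of 12 was lower and 1 was higher (8.33% each). Over all genes tested in footprints, the background for each list here, 7.38% were lower and 8.76% higher. Of the pentose phosphate pathway, which branches off at glucose 6-phosphate, 6 of 7 were lower in RNA and 3 of 7 in footprints, and none was higher. Its leading genes were Pgls, the lactonase, at -0.76 ± 0.12 (adjusted p = 8.28e-05), and Taldo1, transaldolase, at -0.73 ± 0.13 (adjusted p = 0.000249). In the citric acid cycle 13 of 17 were lower in RNA and 3 of 17 in footprints, led by Suclg1, a subunit of succinyl-CoA ligase (-0.85 ± 0.12, adjusted p = 3.1e-05), and Dld (-0.72 ± 0.11, adjusted p = 7.99e-05).

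Of 13 partners and regulators of the hypoxia factor, 2 were higher (15.4%) and 3 were lower (23.1%) in RNA, shares near or below those of all genes (22% and 21.7%). The higher genes were the coactivators Crebbp (0.87 ± 0.15, adjusted p = 0.000176) and Ep300 (0.72 ± 0.14, adjusted p = 0.000561). Ep300 was also higher in footprints (0.47 ± 0.16, adjusted p = 0.0341). Of 26 other hypoxia-induced genes tested in RNA, 7 were higher (26.9%) and 8 lower (30.8%), with a median of -0.07, and in footprints 5 of 24 were higher (20.8%) and 3 lower (12.5%), where all genes had 8.76% and 7.38%. Fam162a, a mitochondrial protein gene, was lower, from 199.7, 253 and 203 CPM to 87.5, 82.7 and 90.2 CPM of RNA (-1.33 ± 0.12, adjusted p = 5.6e-07). Edn1, the peptide endothelin-1, was higher, from 3.49, 6.46 and 3.43 CPM to 17.4, 18.4 and 18.1 CPM (1.97 ± 0.22, adjusted p = 4.14e-06). The difference between these lists and the members was not tested.

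Shorter genes leaned lower in this comparison. In 4 groups of equal size by genomic span, from the shortest to the longest genes, 32.2, 24.0, 18.0 and 12.6% of RNA-tested genes were lower. The members had a median span of 24.9 kb, beside 23.7 kb for all tested genes, and 3 of 8, 5 of 7, 5 of 12 and 2 of 4 members were lower in these groups. With the trend of each library with span removed, 15 members were called lower, 14 of them the same genes. Pgam1 was lost (adjusted p = 0.124) and Pfkm was gained (-0.38 ± 0.13, adjusted p = 0.0211).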

How the data were processed

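Reads over the coding sequence of each gene were counted by the authors for RNA and footprints, and the deposited values are raw counts. The submitters' processing notes list TopHat, HTSeq, DESeq and the build mm10, without versions. The deposited peak lists hold each region's signal (its height) and the counts of reads of each CLIP library. CLIP reads went through cutadapt and Novoalign, per the same notes; the peak caller is not given in the sources used here. Reads without a gene (32.3 to 35.2% of an RNA library), ambiguous or aligned to several places stayed out of library sizes and tests.

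Tests used edgeR 4.0.16 under R 4.3.3 (genes kept by filterByExpr at 10 counts and 15 in total, TMM scaling, the robust quasi-likelihood F test, p adjusted by Benjamini-Hochberg over all genes tested, threshold 0.05). Each assay had its own fit, by group. CPM values are TMM-scaled to the counts of tested genes. Fold changes are knockdown over control on the log2 scale, with SE. DESeq2 1.42.0, other scaling, other filters, a replicate block, removal of the trend with gene span (loess, span 0.5), 1 fit over 12 libraries and leaving out each library were tried. The tests were also run on simulated counts, with the same spread for every gene and independent libraries. That run does not cover the spread and the correlations seen among these libraries, and its outcome is not used as support. Motifs and peaks were counted in Python 3.11.15. Gene positions and promoters came from RefSeq tables of GRCm38.p6.

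The members and the lists of other genes and markers were chosen with earlier results of these data known, and no direction of a list is independent support. All members are accounted for. Library values are given for called members, for Hif1a and for members with a peak, and of each further list the 2 called genes with the smallest RNA p are named. Pkm and Ldhb are named in addition. No genome or protein table was used here, so peak sequences and levels per length of coding sequence were not computed, and levels of different genes are not compared.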

Additional observations from a re-analysis of the deposited data

Results flagged for a closer look

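Hif1a had 0 reads in its 3′ UTR peaks in CLIP library 1, made with undiluted RNase, against 42, 33, 34 and 33 reads in the other libraries, a gap of 0.786 of the whole range. Read numbers are not corrected for depth, and this library had 1954 reads in 3′ UTR peaks against 17760 to 26026 in the others. Per 1000 reads in 3′ UTR peaks the values were 0, 2.36, 1.34, 1.31 and 1.35, where the gap of 1.31 was a smaller part of the range of 2.36. At this depth a count of 0 allows up to 1.54 reads per 1000 (3 counts, counting error only).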

How the results depend on the processing

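The count of members called lower in RNA stayed between 13 and 15 when a library was left out, was 14 with a replicate block or a filter of 10 CPM in 3 libraries, and was 16 without control replicate 3 and knockdown replicate 2, a choice made after seeing the data. In footprints it ran from 7 to 12 over left-out libraries and was 9 with DESeq2. In translational efficiency, 1 member (Tpi1) was called under 1 setting, with each RNA library paired to the footprint library of its group and number, and none under the others.

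Over all genes, footprint calls were 481 higher and 373 lower with DESeq2, and 463 to 885 and 350 to 749 over left-out libraries. Calls of translational efficiency, 14 higher and 8 lower, depended most on the setting: 13 lower (11 higher) with DESeq2's size factors, so 54.2% of calls were lower instead of 36.4%; 28 higher with the span trend removed; 60 and 38 with DESeq2's test; 46 and 78 without a filter; 3 higher with the 10 CPM filter; 0 to 94 and 0 to 149 over left-out libraries. The cause was not tested. With a read required in all 5 CLIP libraries, 1 member had a peak.

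The replicate block changed the RNA calls of all genes to 2042 higher and 1932 lower, took away the call of Pgam1 (adjusted p = 0.118) and left 10 members lower in footprints; translational efficiency had 1 higher and 2 lower. Control and knockdown libraries with the same number did not deviate together (correlations from -0.28 to 0.06 in RNA and from -0.00252 to 0.05 in footprints), so the numbers do not pair these groups. Across numbers, RNA control 3 and knockdown 2 correlated at 0.305, and RNA control 2 and knockdown 3 at 0.241. What these libraries share was not tested, and the main test does not model it. An RNA library and the footprint library that shares its group and number correlated at 0.13 to 0.23 over 8918 genes in 5 of 6 pairs and at 0.00386 in the knockdown libraries numbered 3, and 5 of 6 RNA libraries correlated best with their own number. As not every pair deviated together, the main test does not pair them. A replicate block of these pairs, added after the data were seen, gave 246 genes higher and 107 lower in translational efficiency.

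Calls that a setting changed, beside those named in the results, were Pfkm in RNA without control replicate 2 (adjusted p = 0.0496), Hk2 in RNA with the 10 CPM filter (0.0432), which leaves out Pfkfb3, Pgam1 in RNA with that filter (0.0524), Hk1 in footprints with DESeq2 (0.0987) and, without control replicate 3 and knockdown replicate 2, Vegfa in RNA (0.0421), Pgam1 in footprints (0.0376) and Bnip3 in footprints (0.0665). Members whose sign turned were all uncalled. With the span trend removed, Ankrd37 was at 0.0187 and P4ha1 at -0.0511 in RNA. Over left-out RNA libraries, Aldoc ran from -0.24 to 0.46, P4ha1 from -0.16 to 0.18, Adm from -0.17 to 0.38, Ankrd37 from -0.64 to 0.0549 and Car12 from -0.35 to 0.17. Adm was at -0.38 without control replicate 3 and knockdown replicate 2. In footprints, Slc16a1 was at -0.0133 with the replicate block and ran from -0.0932 to 0.0686 over left-out libraries; Gpi1 ran from -0.12 to 0.00449 and was at 0.0235 without control replicate 3 and knockdown replicate 2. The smallest footprint library holds 512256 counts, which limits members with few reads, such as Bnip3 and Pfkfb3. Levels per length of coding sequence were planned and not run.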
